A study of Homo sapiens with 4 samples.

Results

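Chromatin accessibility in A375 cells was examined at 10 genes that report and restrain ERK signalling: the dual-specificity phosphatase genes DUSP4, DUSP5 and DUSP6, the Sprouty genes SPRY1, SPRY2 and SPRY4, the Sprouty-related genes SPRED1 and SPRED2, and the ETS transcription factor genes ETV4 and ETV5. The members are the open regions that overlap the RefSeq span of 1 of these 10 genes extended by 20 kb on both sides, which gave 62 of the 125986 regions by the authors' deposited table. A375 is an established human melanoma cell line that carries an activating BRAF mutation. The assay was ATAC-seq, which uses a transposase to insert sequencing adapters where DNA is open. Cells of the octanoate group, grown in DMEM with serum, were given octanoate (a fatty acid of medium chain length) at 1 mM for 48 h, and those of the vehicle group were given isopropanol for the same time. Each group had 2 libraries, so there were 4 in all, and nothing in the labels says whether the 2 came from separate cultures. P-values therefore measure the spread between these libraries, which may be technical.

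The RAS, RAF, MEK and ERK cascade passes a growth signal from the cell surface to the nucleus, and in melanoma it is commonly held on by mutant BRAF or NRAS. Active ERK switches on genes whose products turn the cascade down again. DUSP proteins remove phosphate from ERK, Sprouty proteins act on the route from receptor to RAF, and SPRED proteins bring the RAS inhibitor neurofibromin to the membrane. ETV4 and ETV5 are transcription factors of the PEA3 group that rise with ERK activity, and the repressor CIC holds several of these genes down when ERK is silent. Levels of the feedback genes are widely read as a measure of ERK output. Accessibility at a gene is a property of its chromatin, and no RNA was measured in these libraries.

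The authors' deposited table gives, for each region, a normalized read count averaged over all 4 libraries, the log2 fold change of octanoate over vehicle, its standard error (SE) and DESeq2 p-values. It has no value for a single library, so group levels are given below as the means that the deposited mean and fold change imply together, which are approximate. The authors' adjusted p covers the 11185 regions whose mean signal reached 63.8 normalized reads, called tested regions here, and it is listed as 1 for the other 114801, treated here as not tested. Low means were sums of whole reads in 4 fixed steps, which puts 498 to 618 reads in all behind the lowest tested mean. The steps differed by at most 1.24 times. The fold changes as a whole lay above 0: the median over all nuclear regions by the authors' deposited table was 0.23, and 72.1% of regions were above 0 (85.7% of tested regions). As a check of the label, 7 of 9 melanoma marker genes had a listed region at a start or gene end, among them MITF, SOX10, PAX3 and DCT, and MLANA and TYR had none. Of 10 genes of blood, epithelial, liver and endothelial cells, 3 had one (CD3E, SPI1 and KRT8). The signal at KRT8 (77.5 normalized reads) and CD3E (70.1) was above that at 5 of the 7 melanoma markers, SOX10, S100B, DCT, PMEL and PAX3 (15.7 to 58.2).

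In every one of the 10 gene windows the strongest region by mean signal lay at an annotated start or, where the start was not in the table of starts, at an end of the gene span. RefSeq starts were matched for 6 members (DUSP6, SPRY1, SPRY2, SPRY4, SPRED1 and SPRED2), and DUSP4, DUSP5, ETV4 and ETV5 were placed by their gene ends. The start sequences of 3 genes are printed because the strongest start regions of the group lie on those of DUSP6 and SPRY2, and because the SPRED2 starts lie in separate regions. Each is the 250 bases before a RefSeq start on the minus strand of GRCh38.p14, 5′ to 3′, and capitals mark GC boxes (GGGCGG or its complement), which these stretches hold at SPRY2 alone. The positions are chr12:89352502-89352751 for DUSP6, chr13:80341127-80341376 for SPRY2, chr2:65432600-65432849 for the outer SPRED2 start and chr2:65366779-65367028 for the inner one.
DUSP6: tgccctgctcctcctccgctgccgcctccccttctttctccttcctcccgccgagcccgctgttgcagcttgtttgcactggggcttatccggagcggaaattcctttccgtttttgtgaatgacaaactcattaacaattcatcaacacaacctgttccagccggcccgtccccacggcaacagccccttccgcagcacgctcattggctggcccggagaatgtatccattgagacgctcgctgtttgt
SPRY2: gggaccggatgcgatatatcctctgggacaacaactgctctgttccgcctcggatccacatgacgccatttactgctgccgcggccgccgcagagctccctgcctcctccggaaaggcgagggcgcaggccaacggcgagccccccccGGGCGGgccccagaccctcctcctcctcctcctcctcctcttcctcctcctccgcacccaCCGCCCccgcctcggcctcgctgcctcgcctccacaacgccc
SPRED2 outer: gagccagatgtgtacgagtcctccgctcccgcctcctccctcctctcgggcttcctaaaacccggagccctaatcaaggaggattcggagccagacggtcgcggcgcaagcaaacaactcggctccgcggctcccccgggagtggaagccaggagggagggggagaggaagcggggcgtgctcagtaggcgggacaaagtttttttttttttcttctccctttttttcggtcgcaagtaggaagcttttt
SPRED2 inner: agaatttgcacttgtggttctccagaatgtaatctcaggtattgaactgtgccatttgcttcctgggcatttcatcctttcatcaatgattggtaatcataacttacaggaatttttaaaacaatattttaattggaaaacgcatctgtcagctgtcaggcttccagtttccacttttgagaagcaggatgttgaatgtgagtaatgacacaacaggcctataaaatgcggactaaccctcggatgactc

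These 4 sequences were 57.2% (DUSP6), 70.4% (SPRY2), 58.8% (SPRED2 outer) and 39.2% (SPRED2 inner) G or C, against a median of 62% over 22199 starts of protein-coding genes. The outer SPRED2 sequence held 19 CpG pairs and the inner one 3. The starts of SPRY1 (45.6% and 68% G or C) and SPRY2 (70.4% to 41.2%) differed by as much or more. A set of 5 motifs was searched on both strands in windows from 250 bases before to 50 bases from the start. The 10 member windows came from the 6 genes with matched RefSeq starts. DUSP4, DUSP5, ETV4 and ETV5 had no window and were not searched. Only the letters given below were searched, and no variants of them. The GC box (GGGCGG) was in 6 of the 10 windows of member starts, at 5 genes, and in 56.3% of all windows. The AP-1 letters TGANTCA, which read the same on both strands, were in 1 of the 10 windows and in 6.15% of all. That window was the inner SPRED2 start, with TGACTCA at offset -6, across the start base, and TGAATCA at 34. The CIC octamer TGAATGAA, the ETS letters CGGAAGT and the CRE letters TGACGTCA were in 0 of the 10, against 1.45%, 8.62% and 2.26% of all windows. No pair of these motifs was counted for the same letters in a member window.

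None of the members passed the authors' test. Of 15 tested member regions, 0 were higher and 0 lower at an adjusted p under 0.05 (DESeq2, Benjamini-Hochberg), where 1.02% of all tested nuclear regions were higher and 0.0% lower by the authors' deposited table. At an adjusted p under 0.1 the count was 1, a region inside SPRED2, against 2.96% of tested regions. At an unadjusted p under 0.05, 2 of the 15 tested members were higher, a share close to the 14.8% of all tested regions. Over all 62 members 5 were higher and 0 lower at that level, against 3.58% and 0.179% of nuclear regions. Those 5 lay at SPRED2 (2 regions), DUSP5, SPRY4 and ETV5. The comparison over all 62 was not matched for signal, whose median was 24.4 normalized reads in members and 12.2 over all nuclear regions.

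The median log2 fold change of the 62 member regions by the authors' deposited table was 0.18, with quartiles of -0.069 and 0.41, against 0.23 over all nuclear regions. Of the 62, 43 were above 0 and 19 below. The 15 tested members had a median of 0.17, against 0.19 over all tested regions, and 13 of them were above 0. After the tested median was subtracted, the lowest adjusted p of a member was 0.991. The 95% interval of a single region, taken from the authors' SE, included 0 in 57 of 62 members and in 121253 of 125985 nuclear regions. It included the median of all nuclear regions in 60 members and in 123942 nuclear regions. The median SE of a member was 0.43 on the log2 scale, and it rests on 2 libraries per group. By gene, 3 of 10 medians lay above that of all regions (DUSP5, SPRY1 and SPRY2). Against the median of gene medians over 18934 protein-coding genes, 0.20, 5 of 10 were above, with SPRED1 and ETV4 added. Only 1 lay below 0, that of DUSP4.

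**Figure D1:**
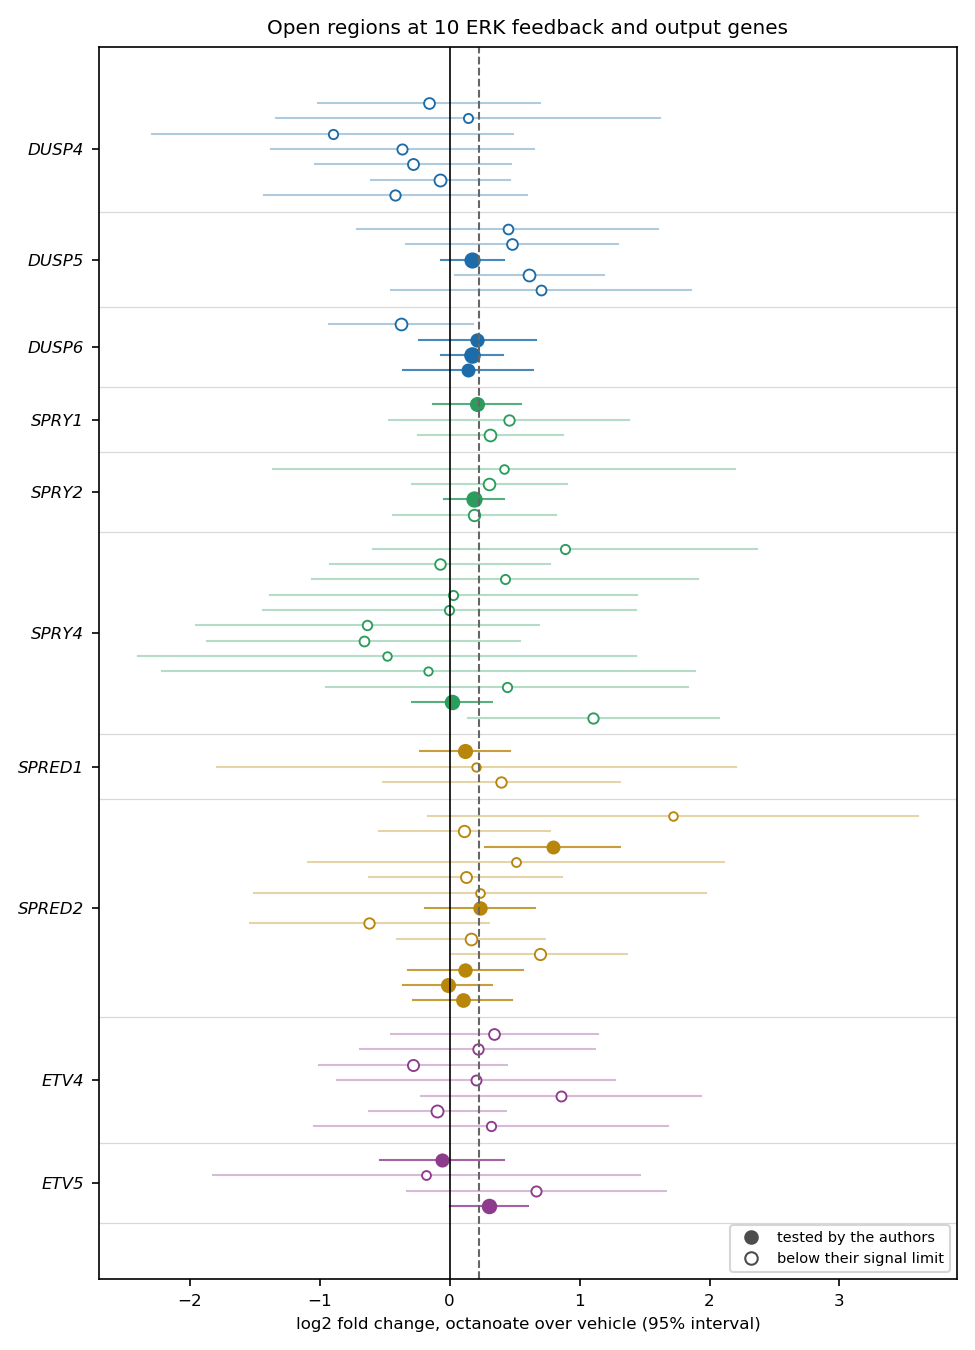
Log2 fold change of octanoate over vehicle (x axis) with its 95% interval for all 62 regions by the authors' deposited table, in order of position within each gene (y axis). Filled points are the 15 tested regions, larger points have a higher mean signal, and the dashed line is the median of all nuclear regions, 0.23. The intervals of 57 regions cross 0, and 6 of the 7 DUSP4 points lie to its left.

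DUSP6, a cytoplasmic phosphatase specific for ERK, had the strongest region of the group. This region (chr12:89348952-89355767) was 6816 bp wide, covered the gene start and had a mean of 437 normalized reads by the authors' deposited table, which stood for 3416 to 4232 reads. The implied group means were 411 normalized reads in vehicle and 463 in octanoate. Its log2 fold change by the authors' deposited table was 0.17 with an SE of 0.12, an interval of -0.064 to 0.41 and an adjusted p of 0.512 (DESeq2). No difference beyond the spread of the libraries was detected there, and a rise above 0.41 lies outside the interval. A second tested region over the far end of the gene (chr12:89345710-89347743) had a log2 fold change of 0.21 by the authors' deposited table, with an interval of -0.24 to 0.66. The third tested region, 17884 bp outside the gene span on the start side, had 0.14 by the authors' deposited table. The remaining DUSP6 region (chr12:89327824-89329048), 18187 bp beyond the other end of the gene, had -0.37 with an SE of 0.28 by the authors' deposited table. Its interval of -0.93 to 0.18 included 0 but not the median of all regions. The read-through gene POC1B-DUSP6 overlaps this window, and the tested region on the start side lies inside it. The strongest DUSP6 region also overlapped a protein-coding gene other than DUSP6.

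DUSP5 encodes a nuclear phosphatase that binds ERK. All 5 DUSP5 regions were above 0 by the authors' deposited table, from 0.18 to 0.70. The strongest (chr10:110495917-110501691) was 5775 bp wide and covered the lower end of the gene span, with implied group means of 307 normalized reads in vehicle and 347 in octanoate. Its log2 fold change was 0.18 with an SE of 0.12 and an adjusted p of 0.512 by the authors' deposited table. A region just past the upper gene end (chr10:110511989-110513253) had 0.61 with an SE of 0.29 and an unadjusted p of 0.0346 by the authors' deposited table. Its implied means were 45.1 in vehicle and 69 in octanoate, and its mean of 57.1 lay below the authors' limit, so it has no adjusted p. The other 3 DUSP5 regions had means of 12.6 to 25.8 normalized reads and fold changes of 0.45, 0.48 and 0.70 by the authors' deposited table, each with an interval that included 0.

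DUSP4, another nuclear phosphatase of ERK and its sister kinases, had the lowest median of the 10 genes. Of its 7 regions 6 were below 0, and the median was -0.28 by the authors' deposited table. None was tested, because the strongest (chr8:29350050-29351359), at the upper end of the gene span, had a mean of 61 normalized reads. The log2 fold change of this strongest region was -0.071 with an SE of 0.27 by the authors' deposited table, and the implied means were 62.5 in vehicle and 59.5 in octanoate. The lowest value, -0.90, was in a region inside the gene (chr8:29340245-29340608) with an SE of 0.71 and a mean of only 9.07 normalized reads by the authors' deposited table. The neighbouring region inside the gene had -0.37, the one next to the strongest had -0.28 and the one past the gene end had -0.42 by the authors' deposited table. All 7 intervals included 0 and the median of all regions, so no difference between the groups was detected at any of them on its own. Over 18934 protein-coding genes with a region in such a window, 15.7% had a median below 0. The choice of DUSP4 for this remark came after its values were known.

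**Figure D2:**
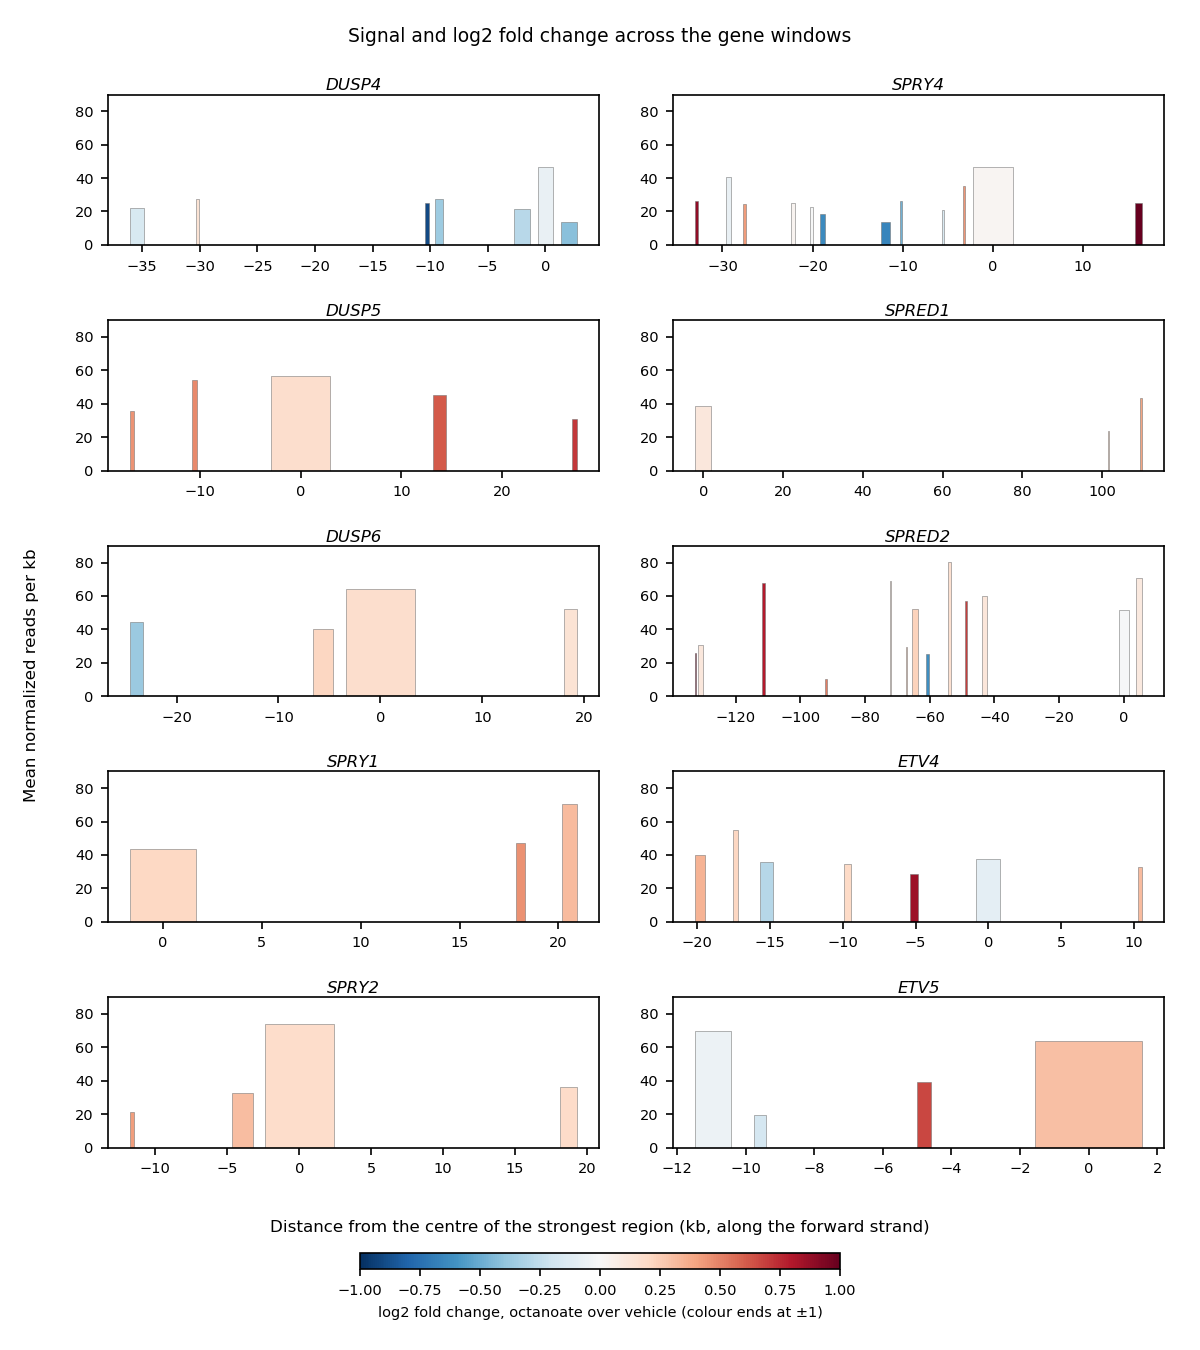
Regions in the 10 gene windows. The x axis is the distance in kb from the centre of the strongest region, the y axis the mean normalized reads per kb, bar width the width of the region to scale, and colour the log2 fold change by the authors' deposited table. Wide bars stand at the starts or gene ends of DUSP5, DUSP6, SPRY2 and SPRY4, and 6 of the 7 DUSP4 bars are blue (lower in octanoate).

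SPRY2, an inhibitor of growth factor signalling, had 4 regions, all above 0. Its start region (chr13:80338705-80343489) was 4785 bp wide and covered all 3 RefSeq starts. The implied means of this region were 329.9 normalized reads in vehicle and 375.2 in octanoate. Its log2 fold change was 0.19 with an SE of 0.12, an interval of -0.047 to 0.42 and an adjusted p of 0.462 by the authors' deposited table. The other 3 regions had 0.31 inside the gene, 0.19 at 18087 bp outside the span on the start side and 0.42 beyond the gene by the authors' deposited table. The last of these had a mean of 5.76 normalized reads, or 45 to 56 reads, and an SE of 0.91.

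SPRY1, which is also a brake on growth factor receptors, had 3 regions with fold changes of 0.21, 0.46 and 0.31 by the authors' deposited table. The first covered both RefSeq starts (chr4:123396464-123399777), with an SE of 0.17 and an adjusted p of 0.595 by the authors' deposited table. Per kb the strongest SPRY1 region was a different one, 14530 bp beyond the gene (chr4:123418290-123419050), with 70.5 normalized reads per kb against 43.6 at the start.

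SPRY4, the Sprouty gene with the most regions, had 12, of which 6 were above 0 and 6 below by the authors' deposited table. Its strongest region (chr5:142324368-142328712), 4345 bp wide, lay over the upper end of the gene span, at -121 bp from the RefSeq start in the table (negative means before the start). With implied means of 203 normalized reads in vehicle and 205 in octanoate it had the smallest fold change in size among tested members apart from the outer SPRED2 start, 0.02 with an SE of 0.16 by the authors' deposited table. Its interval ran from -0.29 to 0.33 and its adjusted p was 0.970. A weaker region 17253 bp outside the span on the start side (chr5:142342274-142343040) had 1.11 with an SE of 0.49 and an unadjusted p of 0.0249 by the authors' deposited table. Its implied means were 12.3 in vehicle and 26.5 in octanoate, from 151 to 189 reads in all, and it was not tested. The 4 weak regions inside SPRY4 had values from -0.66 to 0.44 by the authors' deposited table, with SEs from 0.62 to 1.05. SPRY4 carried 22 regions per 100 kb of window and SPRED1 2.08.

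SPRED2, a membrane-bound inhibitor that acts on RAS and RAF, held the member with the smallest p. This region inside the gene (chr2:65319838-65320805), 111794 bp past the outer start, had implied means of 47.9 normalized reads in vehicle and 82.9 in octanoate. Its log2 fold change was 0.79 with an SE of 0.26, an interval of 0.27 to 1.31, an unadjusted p of 0.00275 and an adjusted p of 0.0955 (DESeq2) by the authors' deposited table. It missed the threshold of 0.05, and its mean of 65.4 stood just above the limit for testing. The SPRED2 region with the most signal per kb (chr2:65377513-65378165, 80.0 normalized reads per kb) had 0.16 with an SE of 0.29 by the authors' deposited table. Another region inside the gene (chr2:65382749-65383399) had 0.69 with an SE of 0.34 and an unadjusted p of 0.0436 by the authors' deposited table and was not tested. The only other SPRED2 region below 0 besides the outer start, inside the gene at chr2:65370684-65371487, had -0.62 with an SE of 0.47 by the authors' deposited table. The largest value of any member, 1.72, came from a region 7698 bp beyond the gene with a mean of 5.52 normalized reads and an SE of 0.96 by the authors' deposited table.

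At the SPRED2 starts, whose sequences are printed above, no change passed the test. The outer start region (chr2:65430316-65433162) had a log2 fold change of -0.01 with an interval of -0.36 to 0.33 by the authors' deposited table. The inner start region (chr2:65366224-65368017) had 0.23 with an interval of -0.19 to 0.66 by the authors' deposited table. The intervals overlapped over most of their length, and the difference between the starts was not tested, since values of single libraries are needed for that. SPRED1, the related gene whose germline loss causes a RAS pathway syndrome, had only 3 regions in a window of 144414 bp. Its start region (chr15:38250905-38254913) held 85.9% of the summed signal of the window, with 0.12 (SE 0.18, adjusted p 0.794) by the authors' deposited table. The SPRED1 region with the smallest p and the most signal per kb lay 5044 bp beyond the gene (chr15:38362293-38362769), with 0.40 and an SE of 0.47 by the authors' deposited table.

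ETV5 had the one start or gene-end region of the group with an unadjusted p under 0.05 among tested regions. This region (chr3:186107445-186110542), 3098 bp wide at the upper end of the gene span, had implied means of 177 normalized reads in vehicle and 218 in octanoate. Its log2 fold change was 0.30 with an SE of 0.15, an interval of 0.0014 to 0.60 and an unadjusted p of 0.0489 by the authors' deposited table. Its adjusted p was 0.333, and its interval included the median of all regions. The other tested ETV5 region (chr3:186097517-186098553), inside the gene, had -0.06 with an SE of 0.24 by the authors' deposited table. ETV4, the related factor, had no tested region. Its strongest (chr17:43545241-43546883), at the upper end of the gene span, had -0.09 with an SE of 0.27 and implied means of 64.1 in vehicle and 60.1 in octanoate by the authors' deposited table. The other 6 ETV4 regions ran from -0.28 to 0.85 by the authors' deposited table, and all 7 intervals included 0. The highest of these, inside the gene (chr17:43540690-43541216), had an SE of 0.55 and the smallest p of the gene, 0.120. The ETV4 region with the most signal per kb, at the lower gene end (chr17:43528516-43528884), had 0.21 by the authors' deposited table. The ETV4 regions from chr17:43525931-43526591 through chr17:43540690-43541216 also overlapped another protein-coding gene.

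At the strongest regions of the 10 genes, 7 fold changes were above 0 and 3 below (DUSP4, SPRED2 and ETV4). They ran from -0.09 to 0.30 with a median of 0.14 by the authors' deposited table, and 9 of the 10 intervals included 0. The strongest region of all 18934 protein-coding genes treated in the same way had a median of 0.16. At the 8 regions within 1 kb of a RefSeq start of a member, the median was 0.18, against 0.14 over 12033 start regions of protein-coding genes by the authors' deposited table. No start region of a member was past the threshold, and the lowest adjusted p among the 7 tested ones was 0.462.

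Most of the members had wide strongest regions, and DUSP4 and ETV4 did so least. The widths were 6816 bp at DUSP6, 5775 at DUSP5, 4785 at SPRY2, 4345 at SPRY4, 4009 at SPRED1, 3314 at SPRY1, 3098 at ETV5 and 2847 at SPRED2, with 1643 at ETV4 and 1310 at DUSP4. Over 18934 protein-coding genes the strongest region had a median width of 1219 bp and a 90th percentile of 2334. All 10 members were above that median and 8 above the 90th percentile, and 0.0264% of genes had one as wide as that of DUSP6. The signal per kb did not stand out in the same way. It ran from 37.8 at ETV4 to 73.7 at SPRY2, and 4 of 10 were above the median of 54.6. Between them came SPRED1 with 38.6, SPRY1 with 43.6, DUSP4 with 46.6, SPRY4 with 46.9, SPRED2 with 51.6, DUSP5 with 56.6, ETV5 with 63.7 and DUSP6 with 64.1, all in normalized reads per kb. No spread between libraries is known for these levels, so neighbours in this order cannot be told apart. Widths are those of the authors' regions, and how regions were merged across libraries is not given in the sources used here. Among 61 other genes of the pathway 12 were above the 90th percentile, with ETV1 (5330 bp) and EGR1 (3739 bp) the widest of their lists, and the median was 1487 bp. No test of the widths was made, so width is not shown to be particular to the members.

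**Figure D3:**
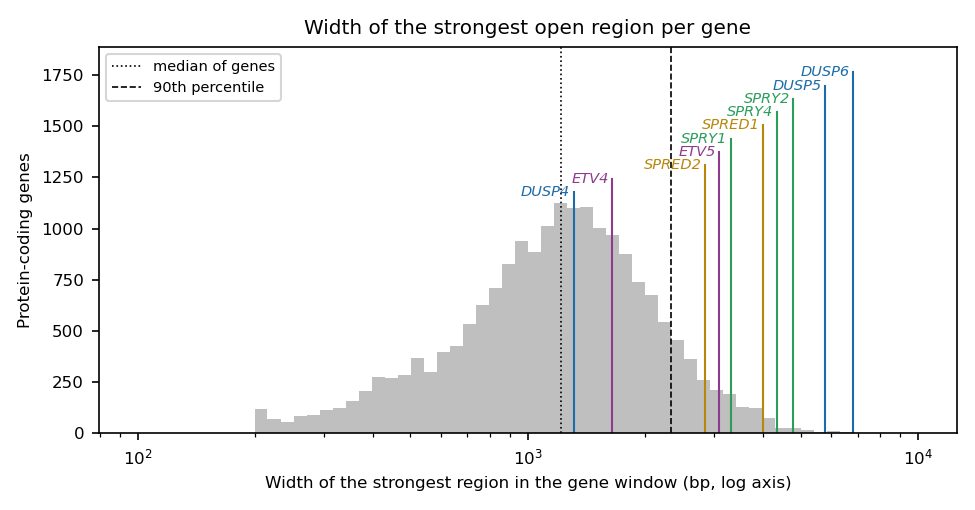
Width of the strongest region in each gene window (x axis, bp, log scale) for 18934 protein-coding genes (grey bars, number of genes on the y axis) and the 10 members (coloured lines, whose height has no meaning). Dotted and dashed lines are the median and 90th percentile of genes. All members but 2 lie to the right of the dashed line, and those 2, DUSP4 and ETV4, lie between the lines.

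The wider pathway was described with 61 further genes in 5 lists, which had 501 regions in the same kind of window, each counted once. Of 65 tested regions, 1 was higher and 0 were lower at an adjusted p under 0.05 by the authors' deposited table, where 1.02% of all tested regions were higher. At an unadjusted p under 0.05, 14 of the 65 were higher, against 14.8% of all tested regions. Of the 65, 61 were above 0 (93.8%), against 85.7% of all tested regions. The median log2 fold change of the 501 regions was 0.25 by the authors' deposited table, against 0.23 over all nuclear regions and 0.18 over the members. RPS6KA2, ATXN1 and KSR2 gave the most of the 501 regions, 42, 37 and 36. With equal weight per gene, the median of gene medians was 0.216 for the other pathway genes and 0.184 for the members. Over 18934 protein-coding genes it was 0.196. The difference between members and the wider pathway was not tested.

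The region past the threshold lay over the upper end of EGR1 (chr5:138469197-138471202), an immediate early transcription factor gene that ERK switches on. Its log2 fold change was 0.93 with an SE of 0.23 and an adjusted p of 0.0165 (DESeq2) by the authors' deposited table, and its adjusted p after subtraction of the tested median was 0.356. In the list of other outputs, which also holds PHLDA1, EPHA2 and CCND1, the 60 regions had a median of 0.27 and 1 of 9 tested regions passed by the authors' deposited table. The cascade itself, with genes such as GRB2, SOS1 and KSR1, had 137 regions with a median of 0.26 and 0 of 17 tested regions past the threshold by the authors' deposited table. KSR2, a scaffold of the cascade, gave 36 of the 137, with a median of 0.51. The smallest p of the cascade belonged to a region 17120 bp from KSR2 (chr12:117986110-117987671), with 0.50, an SE of 0.17 and an adjusted p of 0.110 by the authors' deposited table. Other brakes, such as NF1, RASA1 and DUSP1, had 110 regions with a median of 0.24 and 0 of 16 tested regions past the threshold by the authors' deposited table. All 16 of these tested regions were above 0, and the smallest p among them belonged to a region in RASAL2 (chr1:178126454-178127863), a RAS inhibitor gene, with 0.54 and an adjusted p of 0.172 by the authors' deposited table. The smallest p of the list was that of an untested region 6746 bp from RASA1, another RAS inhibitor gene (chr5:87260522-87261137), with 1.12, an SE of 0.43 and an unadjusted p of 0.00946 by the authors' deposited table.

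Kinases that ERK activates had 82 regions with a median of 0.26 and 0 of 6 tested regions past the threshold by the authors' deposited table. RPS6KA2, a ribosomal S6 kinase gene, gave 42 of the 82, with a median of 0.34. The smallest p of the kinases belonged to an untested region in RPS6KA2 (chr6:166566466-166567497), with 0.97 and an unadjusted p of 0.00146 by the authors' deposited table. The list of ETS factors and the CIC repressor complex had 112 regions with a median of 0.26 and 0 of 17 tested regions past the threshold by the authors' deposited table. ATXN1 gave 37 of the 112, with a median of 0.55. The smallest p of this list belonged to a region in ELK3, an ETS factor gene (chr12:96218995-96220330), with 0.41, an SE of 0.18 and an adjusted p of 0.230 by the authors' deposited table. At an unadjusted p under 0.05 the tested regions that were higher numbered 1 of 17 in the cascade, 5 of 16 among the brakes, 2 of 6 among the kinases, 4 of 17 among the ETS and CIC factors and 2 of 9 among the other outputs, against 14.8% of all tested regions. Some of these regions shared a gene, RASAL2 among the brakes and ETS1 among the ETS and CIC factors, and regions of the same gene are not replicates. No tested region of these lists was lower at that level. An untested region 14498 bp from SOS1, an activator of RAS (chr2:39139366-39139983), was the one region of the 501 that was lower at that level, with -1.37, an SE of 0.59 and an unadjusted p of 0.0203 by the authors' deposited table.

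**Figure D4:**
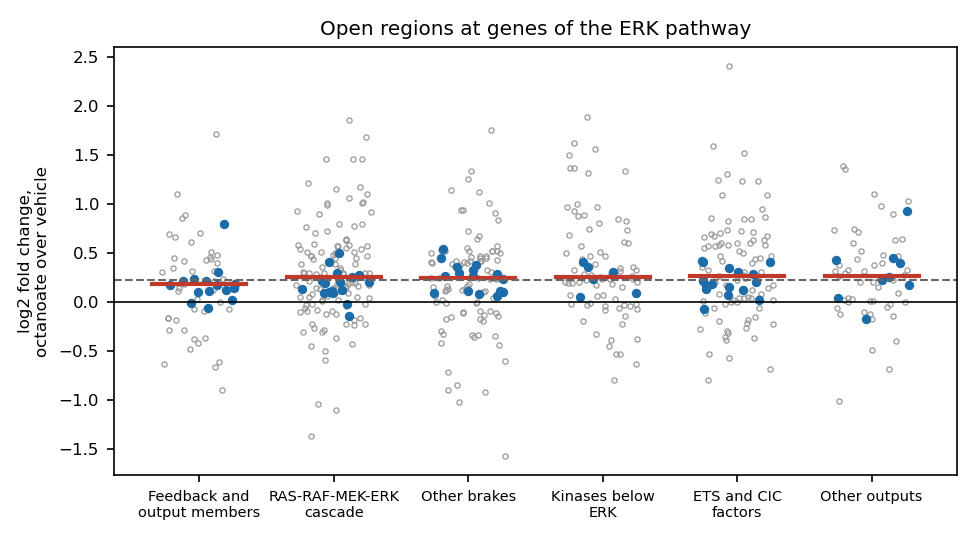
Log2 fold change of octanoate over vehicle (y axis) of every region of the 10 members and of 5 lists of other ERK pathway genes (x axis) by the authors' deposited table. Filled points are tested regions, open points are not, red bars are medians and the dashed line is the median of all nuclear regions. The 6 medians lie between 0.18 and 0.27, close to the dashed line at 0.23.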

How the data were processed

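ATAC-seq libraries of A375 cells were grouped as octanoate or vehicle from the sample titles, with 2 in each group. The submitters' processing notes list Trim Galore, cutadapt, FastQC, Bowtie2, Picard, MACS2, featureCounts, DESeq2, bedtools 2.29.1 and build hg38, with no role or order. Whether reads were shifted for the transposase is not given in the sources used here. Per the file headers, the authors' signal is a mean normalized read count over all libraries, whose scaling is not stated, and the deposited log2 fold change comes with its standard error and a p-value. The deposited score is the Wald statistic. It equalled the log2 fold change over its standard error to within 2.31e-14. The deposited adjusted p equalled Benjamini-Hochberg adjustment over the 11185 regions whose mean signal reached 63.8, and was listed as 1 elsewhere.

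Region starts were taken as counted from 0 and are printed counted from 1. Genes and starts came from RefSeq tables of GRCh38.p14, in which 15843 protein-coding genes had a start. Exons and introns were not analysed here. All 62 member regions were used, and 15 passed the authors' limit on signal. Intervals are 95% normal intervals from the deposited standard errors. Centred values subtract the median log2 fold change of tested or of all nuclear regions. Python 3.11.15, pandas 2.3.3 and scipy 1.17.1 were used, and calculations were tested on simulated data. Adjusted p-values after centring were computed here, from a Wald test on the authors' fold changes and standard errors with Benjamini-Hochberg adjustment. Alternative adjustments reused the authors' p-values. No other test of the groups was made here beyond the authors' own.

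Named regions were, for each member, the one at its start, the one with the most signal per kb, the one with the smallest p and any with an unadjusted p under 0.05, and for other lists the one past the threshold or with the smallest p. Others named, such as the strongest region at a gene end, were chosen after their values were seen. Members and lists were chosen with earlier results of these data known.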

Additional observations from a re-analysis of the deposited data

How the results depend on the processing

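A count or median was taken as moved when it changed by more than 1.5 times, since no spread between libraries is known. The count of member regions past the threshold, 0, stayed at 0 in 7 of 9 alternatives, and became 1 at an adjusted p under 0.1 and 2 at an unadjusted p under 0.05. Subtracting the median of all regions, 0.23, turned the member median of 0.18 to -0.049 and the start-region median of 0.18 to -0.050, and took the median of other pathway regions from 0.25 to 0.024, by construction. No other alternative run moved a median by that much. Leaving out each member gene in turn gave medians from 0.16 (without DUSP5) to 0.20 (without DUSP4). The number of genes with a median above that of all regions, 3, fell to 1 of 10 within gene spans alone and to 1 of 8 in tested regions, against the tested median; fewer regions entered both. It was 5 against the median of gene medians over all genes, an alternative chosen after seeing the data. For other pathway genes the count of 1 (EGR1) became 0 when adjusted over every region or over those at or above the 25th percentile of signal, 0 after centring on either median, 2 at an adjusted p under 0.1 and 14 at an unadjusted p under 0.05. No paired analysis was possible because the authors' deposited table has no value per library, and leaving out a library was not run for the same reason. At a mean of 4.50 normalized reads, the lowest of any member, 35 to 44 reads stood behind a value with an SE of 1.05.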
